A study of Mus musculus with 12 samples.

Results

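The gastrocnemius, the large calf muscle, was profiled by RNA sequencing in mice with and without a CT-26 tumour, a mouse colon carcinoma line. Its 6 libraries were those whose label gives gastrocnemius as the tissue, of 12 libraries in the series; the other libraries came from the hypothalamus and were not used. The 3 CT-26 mice were male BALB/c animals, 7 weeks old in the labels, injected under the skin of the abdomen with CT-26 cells. The labels describe them as cachectic, with body weight 7 to 10% below that of healthy mice by day 10 and tissue taken at day 25. The 3 control mice were male BALB/c animals of the same labelled age without tumour cells; no separate collection time is given for them. Neither group carried an engineered allele, a transgene or a drug. Whether each library came from 1 animal is stated only through the numbering of the labels, so every p-value below measures the spread between these libraries.

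Cachexia is the involuntary loss of muscle and fat that accompanies many tumours. In muscle it is known for the induction of the ubiquitin ligases Trim63 and Fbxo32, which mark contractile proteins for breakdown, and for a fall in net protein synthesis. A fast muscle such as the gastrocnemius owes its contraction to sarcomeres, its excitation to the triad where calcium leaves the sarcoplasmic reticulum, and its burst energy to phosphocreatine and glycolysis.

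The libraries held 26015741 to 42771331 expected counts, and 19852 to 21310 genes had a count in each. Transcripts of myofibre identity filled both groups: the 10 fixed myofibre markers summed to 59670 to 92852 TPM (a length-corrected share of all transcripts) in CT-26 mice and 69792 to 99880 in controls, so the muscle label held. In CT-26 mice 3 of 4 atrophy genes were called higher: Fbxo32 was 11.6-fold, Trim63 10.7-fold and Foxo1 3.42-fold higher. Mstn, the secreted inhibitor of muscle growth, was not called (log2 fold change -0.25, adjusted p = 0.412). Markers of epithelial or carcinoma cells were near 0 in both groups (0.35 to 1.25 and 0.35 to 1.02 TPM summed over 7 genes). All 3 CT-26 libraries lay on the other side of the first principal component from all 3 controls, and this component held 68.6% of the variance. CT-26 mouse 2 stood apart from the other CT-26 mice on the second component, with a score of -44.6 against 14 and 25, on 12.5% of the variance.

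The change was broad. Of 14265 genes tested with edgeR's quasi-likelihood test, 5417 had a Benjamini-Hochberg adjusted p below 0.05 and are termed called; 2801 were higher in CT-26 mice (19.6% of genes tested) and 2616 were lower (18.3%). The changes were also sizeable: 1028 genes were called at least 2-fold higher and 1293 at least 2-fold lower, and 79 and 119 passed 8-fold. The 3 CT-26 values lay entirely above or entirely below the 3 control values for 7369 genes (51.7% of those tested), 3758 above and 3611 below. At the other end, 3116 genes (21.8%) had a 95% interval of the fold change that stayed within 1.5-fold in both directions. Among well-expressed genes those with the narrowest interval included Spg7, a mitochondrial protease, whose CPM (depth-corrected counts after TMM scaling) was 62.2, 63.9 and 66.3 in the CT-26 mice and 67.2, 68.1 and 65.5 in the controls, and Poldip2, at 84.6, 92.5 and 88.0 against 84.2, 85.7 and 87.0. For both genes the groups overlapped and the log2 fold changes were -0.06 and 0.04.

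The share of genes beyond all controls differed between the tumour-bearing mice. Each CT-26 mouse was set aside in turn and genes were called from the other 5 libraries. Mouse 1 then lay beyond all controls for 98.9% of 2175 genes called higher and 97.7% of 1949 called lower. For mouse 2 the shares were 90.7% of 2710 and 91.7% of 2600, and for mouse 3 they were 94.0% of 2728 and 92.0% of 2471. These shares are over different sets of genes, and mouse 1 was the deepest library. Mice with the tumour also differed more from each other than controls did: the median SD of log2 CPM was 0.24 in CT-26 mice and 0.17 in controls, and the SD was the larger one in CT-26 mice for 66.6% of genes.

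**Figure D1:**
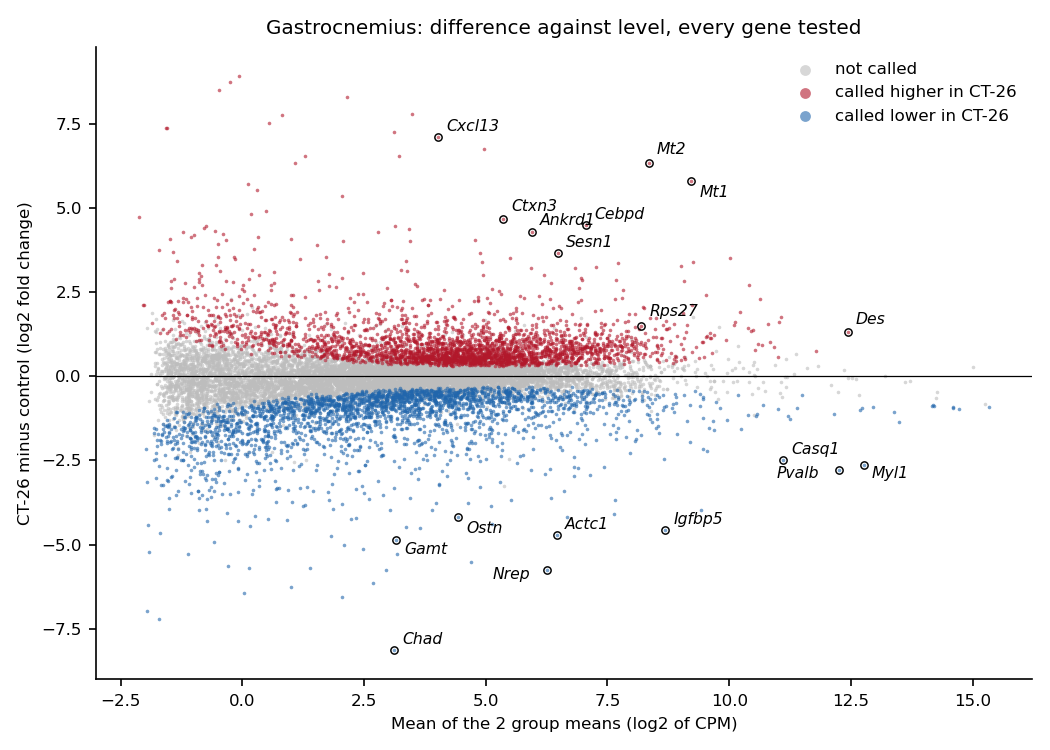
Log2 fold change (CT-26 minus control) against the level of each gene tested, as log2 of the mean of both group means in CPM; red and blue points are genes called higher and lower, grey points are not called, and named genes are circled. Called genes lie at every level; Myl1, Pvalb and Casq1 are abundant genes called lower, and Des is one called higher.

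The make-up of the transcript pool changed with it. In control muscle the 10 most abundant genes held 40.0, 40.0 and 44.5% of all TPM, and in CT-26 muscle they held 29.5, 33.7 and 32.4%. No CT-26 value reached the lowest control value. Put another way, 16, 16 and 13 genes made up 50% of the pool in controls, and 39, 21 and 26 genes did in CT-26 mice. Mitochondrial genes took 15.2, 13.5 and 19.7% of counts in controls and 8.3, 10.1 and 11.1% in CT-26 mice. In bulk tissue, fewer cells of a type and less of an RNA in each cell cannot be told apart, here or in any list below.

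**Figure D2:**
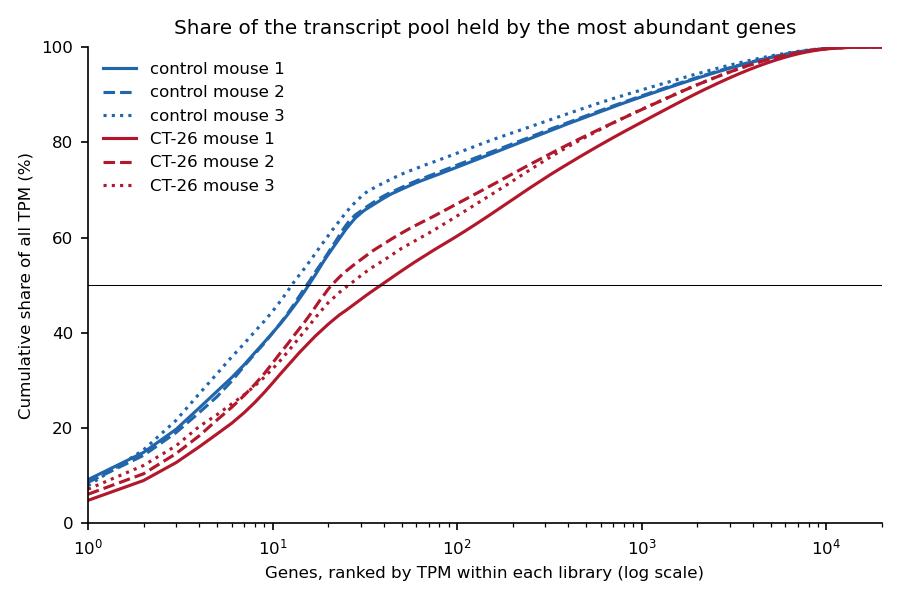
Cumulative share of all TPM (%) against gene rank within each library on a log scale; blue lines are the 3 control mice and red lines the 3 CT-26 mice. The red lines run below the blue lines at the ranks that hold 50% of the pool, and CT-26 mouse 1 crosses 50% last, at 39 genes.

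Among the genes with the largest falls in TPM, Myl1, a fast-fibre myosin light chain, had 3216, 5396 and 2547 TPM in the CT-26 mice and 17133, 22066 and 13690 in the controls, and was called lower (log2 fold change -2.64 ± 0.35 SE, adjusted p = 0.00106). Pvalb, the calcium buffer of the fastest fibres, fell from 11320, 12821 and 8250 TPM to 1120, 3427 and 1351 (log2 fold change -2.78 ± 0.47, adjusted p = 0.00301). Both genes separated the groups fully, and in both CT-26 mouse 2 kept the highest level of its group; without it the log2 fold change of Pvalb was -3.54. Acta1, the skeletal muscle actin, had 26659, 31288 and 21676 TPM in controls and 22442, 14668 and 16365 in CT-26 mice, so that on the TPM scale the groups overlapped. Its count-based call (log2 fold change -0.96, adjusted p = 0.0150) was lost without control mouse 2 (adjusted p = 0.0565) and in the fit on log2 TPM. The largest difference in mean TPM was that of mt-Atp8, whose gene overlaps mt-Atp6 so that reads can be split either way. This gene is 204 bases long, and its TPM did not follow its CPM. Control mouse 3 had its highest CPM (1955) but the lowest TPM of the controls (79097 against 91773 and 86125). Besides mt-Atp8, the 8 largest included mt-Co1 and mt-Nd1. Their calls were marginal and were lost when any of several libraries was left out. Without control mouse 3, which had the highest mitochondrial share, the adjusted p-values of mt-Atp8, mt-Co1 and mt-Nd1 were 0.123, 0.0601 and 0.110. Without CT-26 mouse 1 they were 0.122, 0.0674 and 0.111. These genes were likewise not called without CT-26 mouse 3 (0.103, 0.0636 and 0.0696) or in the fit on log2 TPM. Without control mouse 1, mt-Co1 and mt-Nd1 lost their calls as well (0.0556 and 0.0731). The call of mt-Nd1 was also lost without control mouse 2 (0.0576) and with library totals, and that of mt-Atp8 with DESeq2. The log2 fold change of mt-Atp8 went from -1.31 to -0.72 without control mouse 3.

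Genes called higher with large gains in TPM included an RNA-binding protein, an intermediate filament and parts of the ribosome. Ybx3, an RNA-binding cold-shock-domain protein, rose from 987, 975 and 774 TPM to 4597, 4298 and 3626 (log2 fold change 1.77 ± 0.16, adjusted p = 3.22e-04). Des encodes desmin, which ties the Z-discs of neighbouring myofibrils together, and went from 1102, 1046 and 932 TPM to 4298, 2912 and 2852 (log2 fold change 1.32 ± 0.19, adjusted p = 0.00141). Rps27, a protein of the small ribosomal subunit, had 3503, 3090 and 7311 TPM against 1460, 1160 and 983 (log2 fold change 1.49 ± 0.31, adjusted p = 0.00703). Eif1, a factor that helps choose the start codon, had 2295, 1833 and 2734 TPM against 756, 774 and 701 (log2 fold change 1.18 ± 0.15, adjusted p = 9.46e-04). For all 4 genes every CT-26 mouse exceeded every control. Together, the genes called higher held 7.04 to 8.14% of TPM in controls and 18.3 to 23.8% in CT-26 mice, and those called lower went from 55.7 to 58.5% down to 33.4 to 39.5%.

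The reference against which a gene is read set the balance of directions. With TMM scaling, which sets the bulk of genes to no change, 51.7% of calls were higher and the median log2 fold change of all genes was 0.00. With library totals the split became 70.4% higher and the median rose by 0.20, and with TPM it became 81.5% and the median was 0.28. In all, 2746 genes were called higher and 988 lower in all 3 scalings. Another 1614 genes called lower with TMM were not called with TPM. None was called lower with TMM and higher with TPM, whereas 1727 genes were called higher with TPM and not with TMM. Directions below are from TMM, and the other scalings are given where a list's median changes sign.

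The 12 highest fold changes among the protein-coding genes selected for level and separation were those of Mt2, Mt1, Ctxn3, Cebpd, Ankrd1, Igfn1, Serpina3n, Sesn1, Fbxo32, Depp1, Il6ra and Trim63. Ctxn3, a small membrane protein, had 82.1, 99.4 and 55.0 CPM in CT-26 mice and 4.2, 2.20 and 2.77 in controls (25.7-fold, adjusted p = 1.02e-04). Ankrd1, a stretch-responsive repressor bound to titin (GRCm38 chr19:36111961-36120099, minus strand), had 161, 71.6 and 120.2 CPM against 6.10, 4.51 and 7.11 (19.9-fold, log2 fold change 4.31 ± 0.33, adjusted p = 1.65e-04). Sesn1, a sensor that restrains the growth kinase mTORC1 when leucine is low, had 247, 82.0 and 165 CPM against 10.8, 14.1 and 14.2 (12.6-fold, adjusted p = 4.46e-04). The groups were far apart for all 3 genes. Igfn1, an actin-linked sarcomere protein, was 16.7-fold higher, and here CT-26 mouse 2 was the highest at 100.0 CPM against 32.5 and 22.4 in the other CT-26 mice; without it the log2 fold change moved from 4.06 to 3.15. Depp1, a target of FOXO factors, was 11.5-fold higher, with control mouse 3 (13.4 CPM) above the other controls (4.16 and 4.22); without that mouse its log2 fold change was 4.31. Serpina3n, an acute-phase protease inhibitor, and Il6ra, a receptor subunit for interleukin-6, were 12.8-fold and 10.7-fold higher, with no overlap.

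The 12 lowest, chosen in the same way, included Nrep, Actc1, Igfbp5, Kcng4 and Ostn. Nrep, a small protein expressed in regenerating tissue, had 1.69, 4.34 and 2.39 CPM in CT-26 mice and 186, 160 and 104 in controls (54.7-fold lower, log2 fold change -5.77 ± 0.39, adjusted p = 1.09e-04). Igfbp5, the main IGF-binding protein of muscle (chr1:72857932-72874884, minus strand), had 18.8, 51.9 and 28.6 CPM against 872, 913 and 591 (24.0-fold lower, adjusted p = 2.77e-04). Kcng4, a modifier subunit of voltage-gated potassium channels, had 2.05, 4.22 and 3.41 CPM against 65.5, 66.1 and 67.6 (20.9-fold lower, adjusted p = 8.79e-05). Even the highest CT-26 mouse was more than an order of magnitude below the lowest control for these 3 genes. Ostn, the secreted peptide osteocrin, had 2.27, 2.83 and 1.70 CPM against 36.2, 44.6 and 41.1 (18-fold lower, adjusted p = 5.07e-05). Actc1, the cardiac and developmental actin, was 26.2-fold lower, Cdh4, a cadherin, 13.6-fold, and Pde4a, a cAMP phosphodiesterase, 12.8-fold. In the last 3 genes CT-26 mouse 2 was again the least reduced, and without it the log2 fold changes went from -4.71 to -5.35, from -3.77 to -4.70 and from -3.68 to -4.39. Fmod, a collagen-binding proteoglycan of tendon, was 12.2-fold lower.

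**Figure D3:**
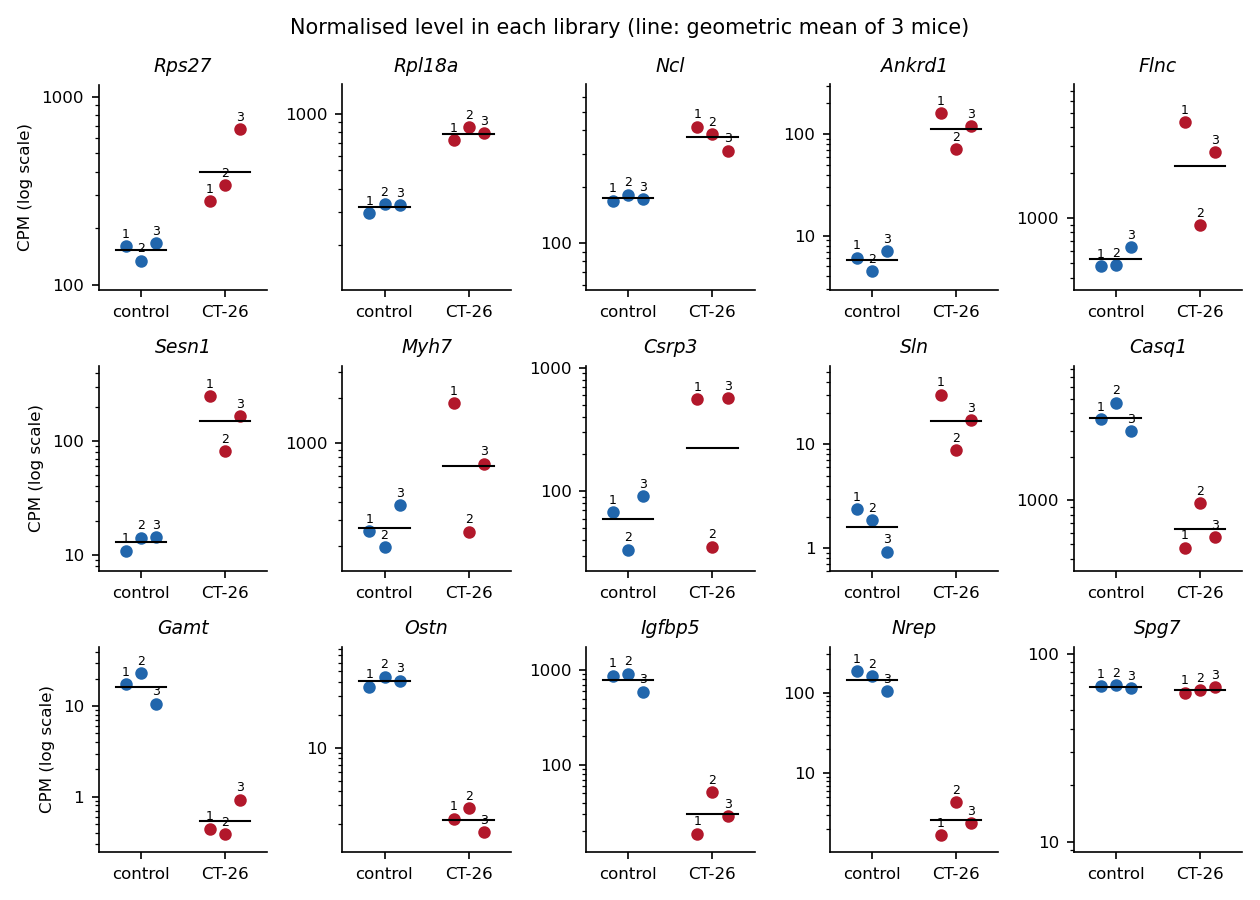
CPM in each library on a log axis for 15 genes; blue points are control mice, red points CT-26 mice, the small digit is the mouse number and the line the geometric mean of 3 mice. Myh7 and Csrp3 show CT-26 mouse 2 among the controls, Spg7 is a gene with little difference whose groups overlap, and in the other 12 genes the groups do not overlap.

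Genes were next grouped into 58 functional lists, each read against the 19.6% and 18.3% of all genes called. The 4 lists of the protein synthesis machinery had the highest shares of members called higher, and basement membrane, imprinted, TCA cycle, creatine and calcium lists had the highest shares called lower.

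**Figure D4:**
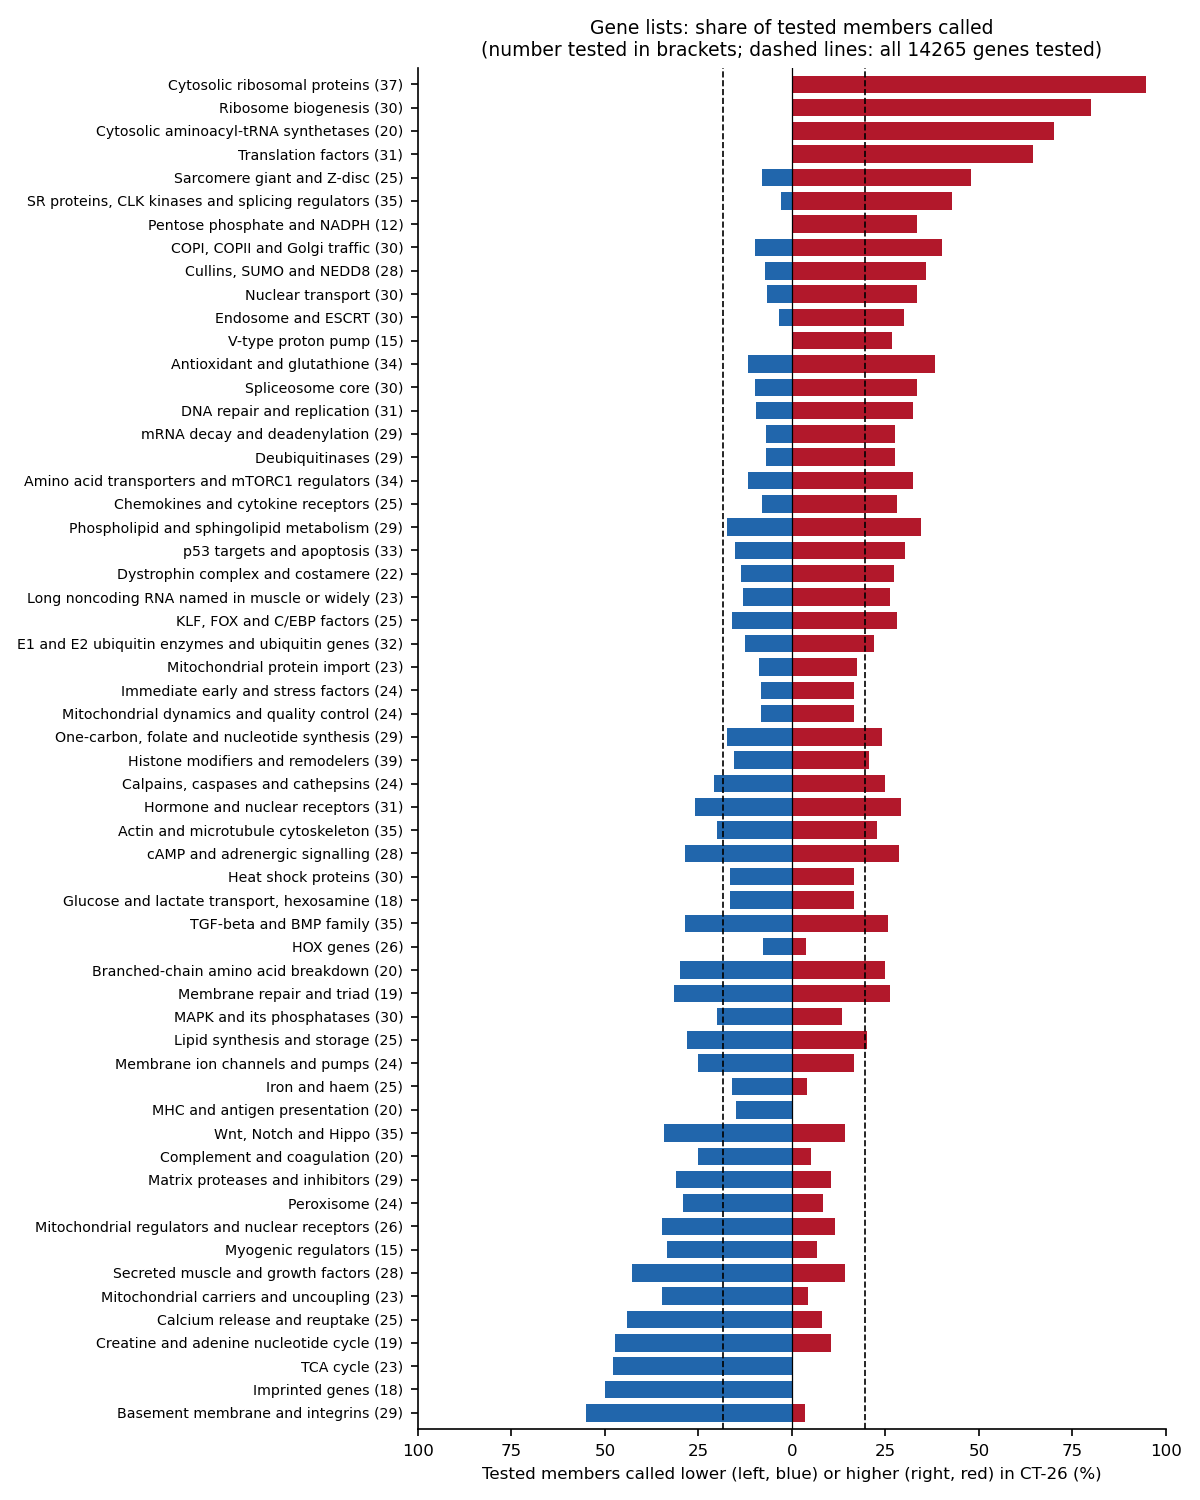
Percent of tested members called lower (blue, left) or higher (red, right) in CT-26 mice for each functional list, with the number tested in brackets; dashed lines give the share of all genes tested. The listed ribosomal proteins, a part of the family, reach the highest share called higher, and basement membrane genes the highest share called lower.

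Of the 37 listed cytosolic ribosomal protein genes, 35 were called higher and 0 lower, with a median log2 fold change of 0.90. With each library left out in turn, 28 to 35 were called higher. The list does not hold the whole family, and its members were chosen with earlier results of these data known. Ribosome assembly factors followed with 24 of 30 higher and 0 lower (median 0.61), translation factors with 20 of 31 and 0 (median 0.68), and the cytosolic aminoacyl-tRNA synthetases, which load amino acids onto tRNAs, with 14 of 20 and 0 (median 0.64). Every one of these calls was also made under the other scalings. Ribosomal protein genes have many processed pseudogenes, so how their reads were divided between copies is uncertain. Rpl3, a core protein of the large subunit, had 85, 50.5 and 99.9 CPM in CT-26 mice and 23, 18.5 and 19.9 in controls (log2 fold change 1.94 ± 0.24, adjusted p = 8.48e-04). Its muscle-specific paralog Rpl3l, which replaces it in mature fibres, had 220, 315 and 265 CPM against 341, 343 and 356, and was not called (log2 fold change -0.38, adjusted p = 0.0905; 0.0241 without CT-26 mouse 2). In TPM the groups of Rpl3l overlapped, with 259, 305 and 254 against 294, 282 and 253.

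Ncl encodes nucleolin, the major nucleolar protein, and had 418, 381 and 311 CPM against 169, 181 and 171 (log2 fold change 1.09 ± 0.15, adjusted p = 0.00118). Nop14, needed for the small subunit, had 53.9, 50.4 and 41.0 CPM against 19.6, 21.8 and 19.6 (log2 fold change 1.25 ± 0.14, adjusted p = 5.56e-04). Eif3b, a scaffold of the initiation factor eIF3, had 236, 221 and 188 CPM against 89.5, 93.0 and 89.6 (log2 fold change 1.24 ± 0.13, adjusted p = 4.62e-04). In each of these genes all 3 CT-26 mice lay above all controls. Vars, the valyl-tRNA synthetase, stood highest among the synthetases with 121, 96.4 and 94.2 CPM against 33.7, 31.5 and 28.0 (log2 fold change 1.74 ± 0.14, adjusted p = 2.32e-04). Eef1a1, which brings loaded tRNAs to the ribosome, rose by 1.06 on the log2 scale (adjusted p = 0.00109), and Eef2, which moves the ribosome along, by 0.94 (adjusted p = 0.0150), although without control mouse 1 or 3 the adjusted p of Eef2 was 0.0623 or 0.0521. Myc, a transcription factor known for driving ribosome genes, had 10.8, 8.71 and 10.3 CPM against 3.83, 3.92 and 2.63 (2.87-fold, adjusted p = 8.52e-04).

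Promoters of the translation genes were read because these members moved together; they come from RefSeq (GRCm38.p6), and 13315 promoters of 10382 tested genes were matched by symbol. A promoter here is the window from 250 bases before to 50 bases after the start, and both strands were searched. The letters CCGGAAGT, the core that ETS-family factors bind, stood in 10.1% of promoters of genes called higher, 3.79% of those called lower and 7.47% of all. The E-box CACGTG, bound by MYC and related factors, stood in 12, 6.79 and 9.76%. Median GC content was close (60.7, 60.5 and 60.7%), and the median number of CG pairs was 21, 17 and 20. Among list members called higher and matched, CCGGAAGT was found in 5 of 25 ribosomal protein genes, 3 of 20 assembly factors, 1 of 16 translation factors and 0 of 9 aminoacyl-tRNA synthetases. CACGTG was found in 2 of 25, 6 of 20, 3 of 16 and 4 of 9 of the same lists. These list values count genes, whereas the percentages are shares of promoters. A gene can have several promoters, so the 2 measures are not directly comparable. The 250 bases before the start are shown 5′ to 3′ on the gene's strand for 4 ribosomal protein genes, with CCGGAAGT or its reverse complement in capitals, and for 2 synthetases and Eef2, with CACGTG in capitals.
Rps6 (chr4:86857368-86857617, minus strand): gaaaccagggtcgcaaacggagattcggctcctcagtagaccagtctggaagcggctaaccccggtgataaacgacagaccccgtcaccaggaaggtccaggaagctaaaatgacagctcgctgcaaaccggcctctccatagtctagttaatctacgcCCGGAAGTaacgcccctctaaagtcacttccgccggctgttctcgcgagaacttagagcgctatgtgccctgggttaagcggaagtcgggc
Rps18 (chr17:33955666-33955915, minus strand): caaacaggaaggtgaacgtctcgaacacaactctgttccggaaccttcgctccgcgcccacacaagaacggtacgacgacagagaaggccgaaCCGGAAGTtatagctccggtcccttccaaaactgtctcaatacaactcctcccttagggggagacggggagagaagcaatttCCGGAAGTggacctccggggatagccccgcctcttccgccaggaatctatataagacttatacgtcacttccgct
Rpl19 (chr11:98026460-98026709, plus strand): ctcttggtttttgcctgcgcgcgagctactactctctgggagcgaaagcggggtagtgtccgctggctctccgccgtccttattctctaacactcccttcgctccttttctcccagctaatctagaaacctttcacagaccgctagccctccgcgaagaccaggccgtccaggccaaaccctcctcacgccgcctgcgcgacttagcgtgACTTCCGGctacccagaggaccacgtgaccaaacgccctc
Rpl37 (chr15:5116363-5116612, plus strand): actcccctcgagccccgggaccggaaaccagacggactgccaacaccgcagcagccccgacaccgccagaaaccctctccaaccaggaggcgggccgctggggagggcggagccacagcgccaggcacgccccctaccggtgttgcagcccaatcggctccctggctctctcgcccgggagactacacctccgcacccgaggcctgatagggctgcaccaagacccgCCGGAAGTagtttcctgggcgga
Aars (chr8:111033592-111033841, plus strand): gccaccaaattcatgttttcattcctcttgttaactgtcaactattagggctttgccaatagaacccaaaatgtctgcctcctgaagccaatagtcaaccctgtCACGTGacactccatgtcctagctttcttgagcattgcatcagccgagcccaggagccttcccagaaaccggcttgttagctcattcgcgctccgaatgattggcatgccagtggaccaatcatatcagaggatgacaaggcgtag
Iars (chr13:49681880-49682129, plus strand): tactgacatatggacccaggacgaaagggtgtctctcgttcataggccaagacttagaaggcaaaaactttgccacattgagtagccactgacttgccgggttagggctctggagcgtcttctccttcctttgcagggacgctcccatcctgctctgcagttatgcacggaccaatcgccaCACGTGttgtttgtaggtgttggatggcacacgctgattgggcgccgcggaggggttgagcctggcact
Eef2 (chr10:81176381-81176630, plus strand): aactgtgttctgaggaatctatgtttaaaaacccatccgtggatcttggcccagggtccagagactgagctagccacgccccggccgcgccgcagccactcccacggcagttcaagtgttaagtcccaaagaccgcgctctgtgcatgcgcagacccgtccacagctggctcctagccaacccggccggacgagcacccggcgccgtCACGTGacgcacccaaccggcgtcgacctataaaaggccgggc
In the upstream stretch Rps18 carries the ETS letters 2 times, starting 157 and 75 bases before the start site, and Rps6, Rpl19 and Rpl37 1 time each, starting 91, 40 and 23 bases before it. Rpl19 also holds the E-box letters. Of the other letters searched, GCGCATGCG stood in 4.45% of promoters called higher, 2.35% of those called lower and 3.36% of all, GGGCGG in 61.9, 59.2 and 60.8%, TGACNNNGC in 15.4, 13.6 and 14.3%, TGCGCNC in 27.2, 24.3 and 25.9%, and CAGCTG in 15.4, 17.7 and 15.7%. In the same order, TGACGTCA stood in 2.77, 2.96 and 2.86%, GAANNTTC in 5.74, 5.35 and 5.71%, and TTCNNNGAA in 6.77, 6.42 and 6.77%. ACANNNTGT stood in 4.56, 3.62 and 4.37%, and GGGANTTNC in 4.68, 3.83 and 4.53%. For TATAAA the shares were 7.75, 7.98 and 7.68%, and for TAAAAATA 1.14, 0.988 and 1.41%. TTGTTTAC (0.836, 0.494 and 0.804%), TCACNCCAC (0.95, 1.32 and 1.16%), TCAAGGTCA (0.114, 0.37 and 0.255%) and TGATGCAAT (0.228, 0.123 and 0.113%) were rare. A match is a run of letters, and no binding was measured.

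In the list of amino acid transporters and mTORC1 regulators, 11 of 34 members were called higher and 4 lower. Sesn1 led it, followed by Ddit4, which activates the TSC complex that inhibits mTORC1, with 151, 58.6 and 121 CPM in CT-26 mice and 7.16, 11.1 and 17.1 in controls (9.36-fold, adjusted p = 9.44e-04). Tsc1, a subunit of that complex, rose by 0.72 on the log2 scale, as did mTORC1's own parts and activators Mtor (0.94) and Rheb (0.55). Deptor, an inhibitor bound to the kinase, was lower (log2 fold change -0.77). Transporters split: Slc7a6, a carrier of basic amino acids, rose by 1.41 (adjusted p = 7.91e-04), Slc1a5, a glutamine carrier, fell by 1.05 (adjusted p = 0.00165), and the proton-coupled Slc36a2 fell by 2.05. Glul, which makes glutamine from glutamate, rose by 1.56.

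**Figure D5:**
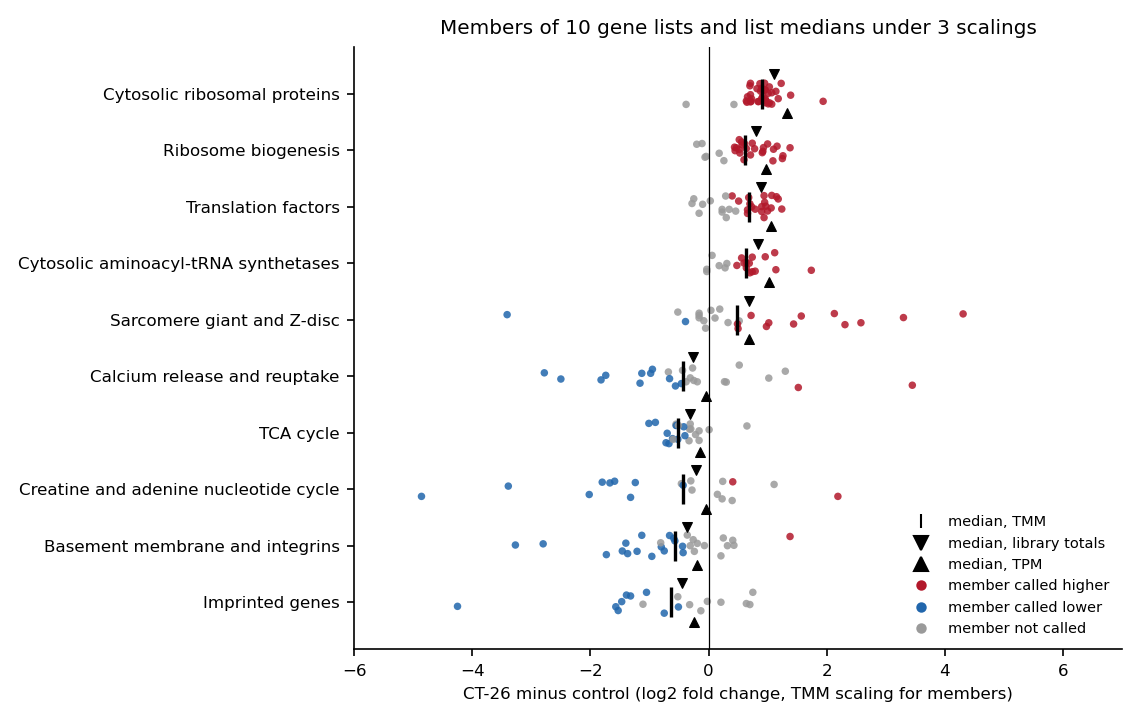
Log2 fold change of each tested member (points, TMM scaling) in 10 lists, with the list median under TMM (bar), library totals (triangle down) and TPM (triangle up). The 4 protein synthesis lists lie to the right of 0 under all 3 scalings, and the calcium, TCA, creatine, basement membrane and imprinted medians lie left of 0 under all 3 but move toward it with TPM.

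In the list of sarcomere giant and Z-disc genes 12 of 25 were called higher and 2 lower, with a median log2 fold change of 0.49. The count higher was 7, 11 and 7 without CT-26 mouse 1, 2 and 3, and 4 and 6 without control mouse 1 and 2. Myot, which bundles actin at the Z-disc, had 2474, 2300 and 2526 CPM against 1108, 1127 and 1371 (log2 fold change 1.02 ± 0.17, adjusted p = 0.00263), with no overlap. Flnc, the muscle filamin that gathers at damaged Z-discs, had 4322, 896 and 2750 CPM against 477, 486 and 641 (4.97-fold, adjusted p = 0.00750). Xirp1, which marks sites of sarcomere remodelling, had 1569, 311 and 1080 CPM against 168, 216 and 291 (4.39-fold, adjusted p = 0.0127; adjusted p = 0.0542 without control mouse 1). In both, CT-26 mouse 2 lay just above the controls and the other CT-26 mice several-fold higher. Myoz3, a calcineurin-binding Z-disc protein of fast fibres, was lower, going from 193, 185 and 153 CPM to 10.4, 27.5 and 12.4 (10.6-fold lower, adjusted p = 4.63e-04).

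Several of these genes followed the slow-fibre programme from mouse to mouse. The 8 slow-fibre genes (Myh7, Tnnt1, Tnni1, Tnnc1, Tpm3, Myl2, Myl3 and Atp2a2, chosen after their values were seen) summed to 5999, 840 and 3022 TPM in CT-26 mice 1, 2 and 3 and to 983, 667 and 1393 in the controls. Myh7, the slow myosin, had 1860, 251 and 721 CPM against 254, 196 and 379, and was not called (log2 fold change 1.77, adjusted p = 0.0513). Csrp3, a stretch-sensing LIM protein, had 556, 35.7 and 565 CPM against 68.0, 33.6 and 91.4. Ankrd2, a stretch-responsive partner of titin known from slow fibres, had 1425, 102 and 1280 CPM against 87.0, 39.4 and 158. Hspb7, a small heat shock protein of the sarcomere, had 3511, 550 and 3014 CPM against 309, 192 and 576. In all 3 genes CT-26 mouse 2 sat among the controls while the other CT-26 mice stood far above them, the pattern of the slow-fibre sum; the part of fibre type in these results was not tested. Their calls (adjusted p = 0.0411, 0.0201 and 0.0139) were strongest without CT-26 mouse 2, at 6.15e-04, 9.49e-04 and 9.75e-04. Csrp3 lost its call without any other single library (adjusted p 0.0720 to 0.118), Ankrd2 without CT-26 mouse 1 or 3 or control mouse 1 or 2 (0.0522 to 0.0707), and Hspb7 without control mouse 1 (0.0562). Actn2, the Z-disc actinin, behaved like Csrp3, with 4069, 1096 and 2768 CPM against 668, 635 and 1367, and its call (adjusted p = 0.0325) was lost without CT-26 mouse 1 or 3 or control mouse 1 or 2 (0.0724 to 0.111).

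Around the membrane, the costamere list, which links the Z-disc to the sarcolemma, had 6 of 22 members called higher and 3 lower; its medians were -0.01 (TMM), 0.19 (library totals) and 0.37 (TPM). Ank3, an ankyrin that holds channels and dystrophin in place, had 251, 221 and 178 CPM against 88.8, 86.0 and 90.2 (log2 fold change 1.29 ± 0.15, adjusted p = 6.76e-04). Itga7, the laminin receptor of muscle, had 116, 96.3 and 105 CPM against 51.9, 50.8 and 49.1 (log2 fold change 1.06 ± 0.12, adjusted p = 5.96e-04). Sspn, a small membrane partner of the sarcoglycans, halved, with 44.6, 40.6 and 48.8 CPM against 95.6, 98.6 and 88.7 (log2 fold change -1.08 ± 0.12, adjusted p = 6.05e-04). The 3 CT-26 mice were close to each other in all 3 genes. Trim72 and Anxa6, which reseal torn membrane, rose by 0.91 and 0.90 on the log2 scale. The list of repair and triad genes had 5 of 19 higher (2 without CT-26 mouse 1 or control mouse 2, 3 without control mouse 1 or 3) and 6 lower (3 without control mouse 1 or 2; median -0.15, 0.06 and 0.22). In it, Jph2, which pins the sarcoplasmic reticulum to the T-tubule, had 194, 269 and 219 CPM against 798, 792 and 656 (log2 fold change -1.72 ± 0.17, adjusted p = 4.19e-04), and Stac3, needed for the calcium release channel to respond to voltage, fell by 1.3 (adjusted p = 4.15e-04).

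Of 25 calcium release and reuptake genes, 11 were called lower (7 without control mouse 1 or 2) and 2 higher (4 without CT-26 mouse 2 or 3), with medians of -0.44 (TMM), -0.27 (library totals) and -0.04 (TPM); 6 of the 11 were called lower in all 3 scalings. Casq1, the calcium store of fast-fibre sarcoplasmic reticulum (chr1:172209894-172219868, minus strand), had 476, 960 and 563 CPM against 3602, 4700 and 2992 (5.65-fold lower, log2 fold change -2.50 ± 0.31, adjusted p = 8.48e-04). The calmodulin genes Calm2 and Calm3 encode the same protein, and both were lower, by log2 fold changes of -1.82 and -1.74 (adjusted p = 3.13e-04 and 0.00106). Calm2 had 28.1, 42.4 and 36.6 CPM against 125, 135 and 117, without overlap. Against this direction Sln, which encodes sarcolipin, an inhibitor of the calcium pump, had 30.2, 8.83 and 17.2 CPM against 2.37, 1.87 and 0.924 (10.9-fold higher, adjusted p = 0.00142). Cacng1, a subunit of the voltage sensor, rose 2.87-fold (adjusted p = 0.00294). Among ion channels and pumps 4 of 24 were called higher (1 without CT-26 mouse 1 or control mouse 1, 2 without control mouse 2 or 3) and 6 lower (median -0.26 by TMM, -0.04 by library totals and 0.05 by TPM). Atp1b2, a beta subunit of the sodium pump, fell by 1.93 on the log2 scale (adjusted p = 0.00443), from 381, 499 and 400 CPM to 62.5, 183 and 90.1.

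Of 19 creatine and adenine nucleotide genes, 9 were called lower, 7 of them in all 3 scalings, and 2 were higher (median -0.43 with TMM, -0.22 with library totals, -0.04 with TPM). Gamt, the enzyme that completes creatine synthesis (chr10:80258151-80261012, minus strand), had 0.445, 0.387 and 0.927 CPM in CT-26 mice and 17.6, 23.2 and 10.6 in controls (29.0-fold lower, log2 fold change -4.86 ± 0.40, adjusted p = 2.25e-04). Gatm, which performs the preceding step, was 3.19-fold lower (adjusted p = 0.00113), with no overlap. Nt5c1a, which breaks AMP down to adenosine, had 0.233, 0.426 and 0.359 CPM against 3.07, 4.40 and 2.95 (10.5-fold lower, adjusted p = 3.11e-04). The AMP deaminases Ampd1 and Ampd3 moved oppositely. Ampd1, the adult muscle form, was 2.36-fold lower (adjusted p = 0.00755). Ampd3 had 86.6, 30.7 and 49.8 CPM against 11.1, 8.98 and 16.6 (4.56-fold higher, adjusted p = 0.00321). Ckm, the cytosolic creatine kinase, had 12354, 24706 and 12634 CPM against 20702, 26535 and 21149 and missed the threshold (adjusted p = 0.290); leaving out CT-26 mouse 2 made it lower (log2 fold change -0.88, adjusted p = 0.0170).

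In the TCA cycle 11 of 23 genes were called lower and 0 higher. The count lower was 6 without CT-26 mouse 1 or control mouse 1 or 2 and 5 without control mouse 3, and 1 of the 11 was lower in all 3 scalings, and the medians were -0.51, -0.32 and -0.15 under TMM, library totals and TPM. Sucla2, a subunit of the ATP-forming succinyl-CoA ligase, had 150, 158 and 176 CPM against 314, 327 and 334 (log2 fold change -1.01 ± 0.13, adjusted p = 8.52e-04). Idh3a, a subunit of the rate-setting isocitrate dehydrogenase, fell by 0.90 with TMM and was not called with TPM. Mitochondrial carriers had 8 of 23 lower (2 without CT-26 mouse 1 and 5, 4 and 3 without control mouse 1, 2 and 3) and 1 higher (median -0.22, -0.03 and 0.16 in the same order), with Vdac1, the outer membrane channel, lower by a log2 fold change of -0.94 (adjusted p = 0.00313). Among mitochondrial regulators and nuclear receptors 9 of 26 were lower (5 without CT-26 mouse 1) and 3 higher (median -0.45, -0.22 and -0.05). Prkag3, the AMPK subunit of fast glycolytic fibres, had 19.4, 54.3 and 17.8 CPM against 248, 190 and 148 (6.42-fold lower, adjusted p = 0.00250; log2 fold change -3.40 without CT-26 mouse 2, -2.68 with it), while Nrf1, which activates nuclear genes of the respiratory chain, doubled from 8.11, 7.59 and 7.43 CPM to 16, 16.9 and 14.4 (adjusted p = 7.35e-04). Mitochondrial dynamics and quality control (4 higher and 2 lower of 24, with 0 lower without any 1 control mouse and 4 lower without CT-26 mouse 3) and protein import (4 and 2 of 23, with 5 lower without CT-26 mouse 3, median -0.03, 0.17 and 0.37) had few calls. Phb2, a prohibitin of the inner membrane, doubled (log2 fold change 1.00, adjusted p = 0.00144).

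Breakdown of branched-chain amino acids was mixed, with 5 of 20 genes higher (2 without control mouse 1 or 2, 3 without control mouse 3) and 6 lower (median -0.16, 0.05 and 0.23). Its regulator Klf15 rose by 1.69 on the log2 scale (adjusted p = 0.00120), from 17.1, 17.3 and 21.4 CPM to 75.9, 40.1 and 64.0. Bckdhb, a subunit of the committing dehydrogenase, rose by 0.82, while Ivd and Mccc1 of the leucine branch fell by 0.73 and 0.63 and were not called with TPM. In glucose and lactate transport 3 of 18 were higher and 3 lower. Tbc1d4, the insulin-controlled brake on glucose transporter movement, had 60.4, 89.3 and 67.1 CPM against 27.5, 25.1 and 31.2 (2.58-fold, adjusted p = 8.54e-04). The pentose phosphate list had 4 of 12 higher (1 without control mouse 1 or 3, 2 without CT-26 mouse 1 or control mouse 2) and 0 lower, with Pgd up by 0.70 (adjusted p = 0.00589).

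Of 25 lipid synthesis and storage genes 5 were higher and 7 lower (4 lower without CT-26 mouse 2 or control mouse 1 or 3; median -0.28, -0.08 and 0.16). Plin4, a lipid droplet coat protein of muscle, had 1040, 751 and 698 CPM against 165, 220 and 288 (3.70-fold, adjusted p = 0.00102). Pnpla2, the first lipase of triglyceride breakdown, had 718, 540 and 525 CPM against 165, 187 and 267 (2.88-fold, adjusted p = 0.00154). Both groups of 3 were well apart. Fasn, fatty acid synthase, had 11.4, 10.0 and 10.2 CPM against 31.3, 25.0 and 29.4 (2.71-fold lower, adjusted p = 3.03e-04), and Gpam, which starts glyceride assembly, was 2.69-fold lower (adjusted p = 2.86e-04). Adipocyte markers fell in the same libraries: 6 of 7 were called lower, and they summed to 161 to 201 TPM in CT-26 mice and 245 to 259 in controls. Adipoq, the adipocyte hormone adiponectin, had 2.46, 2.44 and 2.42 CPM against 11.5, 12 and 13.7. The droplet proteins Plin1 and Cidec, both in that marker list, had log2 fold changes of -3.19 and -2.18. The part of fat cells in the fall of Fasn and Gpam was not tested.

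Splicing regulators had 15 of 35 members higher and 1 lower (median 0.29), all 15 also in the other scalings, and 8, 8 and 9 were higher without control mouse 1, 2 and 3. Cirbp and Rbm3, the cold-inducible RNA-binding proteins, were the 2 highest; Cirbp had 48.1, 58.4 and 43.2 CPM against 19.5, 15.3 and 14.3 (3.05-fold, adjusted p = 4.63e-04), and Rbm3 rose by 1.56 on the log2 scale. Hnrnpu, a nuclear scaffold and splicing factor, had 361, 307 and 312 CPM against 139, 139 and 150 (2.29-fold, adjusted p = 5.28e-04). The kinases Clk1, Clk2 and Clk4, which activate SR proteins, rose by 0.79, 0.61 and 0.74. The spliceosome core had 10 of 30 higher (6 and 5 without control mouse 1 and 2) and 3 lower (1 without any control mouse), and the lower ones, Snrpb, Snrpd3 and Snrpf, all encode proteins of the Sm ring; Snrpf had 4.57, 6.2 and 8.58 CPM against 11.8, 13.4 and 13.3 (log2 fold change -1.0, adjusted p = 0.00880), while Snrpd3 (-0.56) was not called with library totals or TPM, or without control mouse 1, 2 or 3 (adjusted p = 0.0729, 0.0713 and 0.0832). Of mRNA decay genes 8 of 29 were higher (4 without CT-26 mouse 1 or control mouse 1 or 3, 5 without control mouse 2) and 2 lower, with Pnrc1, a decapping activator, at 315, 414 and 319 CPM against 96.6, 141 and 101 (3.10-fold, adjusted p = 7.09e-04). Nuclear transport had 10 of 30 higher (5 without control mouse 1 and 6 without CT-26 mouse 1 or control mouse 2 or 3) and 2 lower; the importins Ipo4 and Ipo5, carriers of ribosomal proteins and histones, rose by 1.07 and 0.95. Chromatin regulators gave 8 of 39 higher and 6 lower, near the background; the count higher was 13 without CT-26 mouse 3, 5 without CT-26 mouse 1 or 2, and 2, 4 and 4 without control mouse 1, 2 and 3. Ezh1, the histone methyltransferase of non-dividing muscle, was 2.59-fold higher (adjusted p = 7.91e-04), and Dnmt3a, a DNA methyltransferase, was 2.16-fold lower (adjusted p = 0.00148).

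Ubiquitin and its E1 and E2 enzymes had 7 of 32 higher and 4 lower (1 lower without control mouse 1 or 2), near the share of all genes in the higher direction. Ubb had 2104, 1923 and 1961 CPM against 721, 922 and 716 (2.54-fold, adjusted p = 9.05e-04); it encodes a chain of ubiquitin units. Deubiquitinases gave 8 of 29 higher (4, 5 and 5 without control mouse 1, 2 and 3) and 2 lower. The cullin, SUMO and NEDD8 list gave 10 of 28 higher (5 and 6 without control mouse 1 and 3) and 2 lower. Nploc4, which hands ubiquitinated clients to the segregase Vcp, had 328, 253 and 211 CPM against 66.5, 74.4 and 61.7 (3.91-fold, adjusted p = 3.30e-04), and Vcp rose by 0.52. Among proteases, Ctsd, the main lysosomal aspartic protease, had 1166, 1007 and 1105 CPM against 446, 523 and 512 (2.22-fold, adjusted p = 0.00102); the list was near background with 6 of 24 higher and 5 lower (0 to 4 lower with each library left out, 0 without control mouse 2), with medians of -0.12, 0.08 and 0.18. Heat shock genes gave 5 of 30 in each direction (8 higher without CT-26 mouse 2, 3 higher and 9 lower without control mouse 1; median -0.16, 0.05 and 0.20). The factors Hsf1 and Hsf2 rose by 0.91 and 0.99, and Hspa4l fell by 1.63. Hspa1b, the inducible Hsp70, was not called (adjusted p = 0.0595), and its control mouse 2 had 194 CPM against 5.0 and 25.6 in the other controls.

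In membrane traffic, COPI, COPII and Golgi genes had 12 of 30 higher and 3 lower, endosome and ESCRT genes 9 of 30 and 1, and the proton pump of lysosomes 4 of 15 and 0, the last near the share of all genes. Hgs, which captures ubiquitinated cargo on endosomes (chr11:120467635-120483979), had 143, 119 and 81.1 CPM against 20.4, 23.8 and 20.9 (5.28-fold, log2 fold change 2.40 ± 0.21, adjusted p = 2.81e-04). The next member of its list, Chmp1a, had a log2 fold change of 0.82. Sec31a, an outer COPII coat protein, doubled (log2 fold change 1.00, adjusted p = 0.00150). Npc1, which exports cholesterol from lysosomes, was 5.06-fold higher and Retreg1, a receptor for autophagy of the endoplasmic reticulum, 7.2-fold (adjusted p = 9.36e-04 and 4.15e-04); both were chosen after their values were seen. The cytoskeleton list was near background with 8 of 35 higher and 7 lower (median -0.03, 0.19 and 0.30). Within it the tubulins divided: Tubb4b, Tubb6, Tuba1c and Tubb5 rose by 1.41, 1.27, 1.21 and 0.89, and Tuba1a, Tubb2a and Tubb2b had log2 fold changes of -1.22, -0.81 and -1.69.

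Signalling genes changed in both directions, with single members moving far. Map2k6, the kinase that activates p38, had 1.33, 1.70 and 1.88 CPM against 19.6, 21.2 and 19.3 (12.3-fold lower, log2 fold change -3.62 ± 0.17, adjusted p = 5.07e-05). The MAPK list had 4 of 30 higher and 6 lower (median -0.25, -0.05 and 0.11). Gdf11, a close relative of myostatin, had 1.48, 1.63 and 1.64 CPM against 16.1, 19.5 and 11.7 (9.98-fold lower, adjusted p = 1.02e-04). Around it the TGF-beta and BMP list gave 9 of 35 higher (4 and 3 without control mouse 1 and 2) and 10 lower (median -0.31, -0.10 and 0.03), and the receptor Tgfbr1 and the shared mediator Smad4 rose by 0.95 and 0.61. In the Wnt, Notch and Hippo list 12 of 35 were lower and 5 higher (3 without CT-26 mouse 1 or control mouse 1 or 2) (median -0.28, -0.09 and 0.17). The Wnt antagonists Sfrp2, Dkk3 and Sfrp4 and the ligand Wnt5a led the falls; Dkk3 had 4.21, 6.31 and 2.30 CPM against 32.9, 31.0 and 34.3 (7.72-fold lower, adjusted p = 4.40e-04), and Wnt5a 1.04, 1.47 and 1.02 against 7.05, 6.27 and 6.54 (5.69-fold lower, adjusted p = 1.99e-04). Ccn1, a matrix signal induced by YAP, had 85.7, 74.4 and 37.5 CPM against 9.49, 10.0 and 14.7 (5.77-fold higher, adjusted p = 8.54e-04).

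In the list of hormone and nuclear receptors 9 of 31 were higher (5 without control mouse 1) and 8 lower (5 without control mouse 2; median -0.08, 0.13 and 0.25). The insulin and IGF-1 receptors Insr and Igf1r rose by 0.77 and 0.93 (adjusted p = 0.00716 and 0.00415). The growth hormone receptor Ghr had a log2 fold change of -0.67. Its call was lost without CT-26 mouse 1 or 3 or control mouse 1 or 2 (adjusted p = 0.0803 to 0.0956), and with library totals or TPM. Igf1 itself was 2.23-fold lower (adjusted p = 0.00117), from 28.3, 19.3 and 21.7 CPM to 10.5, 10.1 and 10.5; Igf1 was not called with TPM. Rora, a lipid-sensing nuclear receptor of the clock, was 2.38-fold higher (adjusted p = 5.96e-04). The glucocorticoid receptor Nr3c1 had a log2 fold change of -0.61 (adjusted p = 0.0140; 0.0569 without control mouse 2). Pik3r1, the regulatory subunit of PI3-kinase, was 5.23-fold higher (69.8 to 106 CPM against 14.7 to 18.8, adjusted p = 1.65e-04), and Mknk2, a kinase of the cap-binding factor eIF4E, 5.34-fold (adjusted p = 3.11e-04). The cAMP list gave 8 of 28 in each direction (5 higher without CT-26 mouse 1 or control mouse 1 and 4 without control mouse 2; median -0.15, 0.05 and 0.18); Pde4a fell in it, and Pde8a, another phosphodiesterase, was 2.15-fold higher.

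Of 28 secreted factors, 12 were called lower (7 without control mouse 1) and 4 higher (2 without CT-26 mouse 1 or any control mouse; median -0.62, -0.41 and -0.16). Beside Ostn, Metrn, a factor known from nerve and muscle, had 4.07, 5.27 and 5.98 CPM against 20.2, 22.7 and 18.7 (4.03-fold lower, adjusted p = 2.49e-04), and Il15 and Fndc5, the precursor of irisin, had log2 fold changes of -1.17 and -1.03. Gdnf, a survival factor for motor neurons, had 2.73, 2.17 and 2.27 CPM against 0.584, 1.10 and 0.782 (2.91-fold higher, adjusted p = 0.00373). Another 3 genes outside the lists, taken after their values were seen, rose more. Vegfd, a growth factor for lymph vessels, had 26.1, 15.7 and 20.02 CPM against 1.06, 1.36 and 1.39 (16.3-fold, adjusted p = 8.79e-05). Stc2, the glycoprotein stanniocalcin-2, was 9.07-fold higher and Igfbp3, the main carrier of IGF-1, 6.02-fold, all without overlap.

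Basement membrane genes had the highest share called lower of the functional lists: 16 of 29, with 1 higher, medians of -0.57, -0.36 and -0.19, and 12 to 17 lower with each library left out. Of the 16, 8 were lower in all 3 scalings. Col15a1, a collagen of the muscle and vessel basement membrane, had 12.8, 16.1 and 14.9 CPM against 44.2, 51.8 and 48.9 (3.31-fold lower, adjusted p = 1.81e-04). Lama4, a laminin chain of vessels, was 2.31-fold lower (adjusted p = 4.15e-04), and the nidogens Nid1 and Nid2, which join laminin to collagen IV, had log2 fold changes of -1.46 and -1.37. Itga5, a fibronectin receptor, was the member that rose (2.60-fold, adjusted p = 0.00454). Matrix proteases and inhibitors had 9 of 29 lower and 3 higher (6 higher without CT-26 mouse 2; median -0.17, 0.03 and 0.18); Serpinh1, the collagen chaperone, was 4.61-fold lower (adjusted p = 7.52e-04). Markers of the cells that lay down this matrix moved too, though several, such as Col1a1, Col3a1 and Fmod, encode matrix proteins themselves. Fibroblast markers were lower in 7 of 8 cases and summed to 259 to 284 TPM in CT-26 mice against 332 to 523. The exception, Pdgfra, was not called. It had 3.02, 3.03 and 3.00 TPM in CT-26 mice against 2.22, 2.36 and 2.52 in controls. Tenocyte markers were lower in 5 of 6 (3 without control mouse 1) and higher in 1, Scx, which lost its call without CT-26 mouse 3 or control mouse 2 or 3 (adjusted p = 0.0587, 0.0537 and 0.0536), and they summed to 21.6 to 42.6 TPM against 51.3 to 116; Tnmd, the tendon protein tenomodulin, was 35.3-fold lower (adjusted p = 3.53e-04). Chad, a cartilage and tendon leucine-rich protein seen afterwards, had 0.0424, 0.155 and 0 CPM against 23.6, 19.97 and 8.17; without CT-26 mouse 2 its log2 fold change went from -8.15 to -9.25. How much tendon or connective tissue each dissection held was not measured, and its part in these falls was not tested.

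Imprinted genes, which are expressed from 1 parental copy and are high in fetal and regenerating muscle, were lower in 9 of 18 cases and higher in 0 (median -0.64, -0.45 and -0.25). Of the 9, 5 were lower in all 3 scalings. With each library left out, 6 to 9 were lower and 0 to 2 higher. The summed TPM of the list did not fall, at 473 to 1038 in CT-26 mice and 363 to 480 in controls. Rian and Meg3, noncoding RNAs of the Dlk1 domain, were 2.97-fold and 2.07-fold lower (adjusted p = 8.59e-04 and 0.00127). Ndn, a growth-restraining protein, had 2.16, 2.56 and 3.41 CPM against 7.78, 7.70 and 6.93 (adjusted p = 0.00111). Nnat, a small reticulum protein, had 0.339, 0.232 and 0.807 CPM against 17.2, 6.30 and 3.09, a fall of 4.25 on the log2 scale that became -3.34 without control mouse 1 and -4.88 without CT-26 mouse 3. The list's members Mest, Snrpn, Cdkn1c and Sgce had log2 fold changes of -1.39, -1.32, -0.75 and -0.51.

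Antioxidant and glutathione genes gave 13 of 34 higher and 4 lower (2 lower without control mouse 2; median 0.34). Gpx3, a secreted glutathione peroxidase, had 489, 662 and 756 CPM against 231, 214 and 258 (2.71-fold, adjusted p = 0.00103), and Gss, which completes glutathione, was 2.22-fold higher (adjusted p = 8.52e-04). The mitochondrial dismutase Sod2 was 1.77-fold lower with TMM and not called with TPM, and Gsta4, which clears lipid aldehydes, was 3.74-fold lower (adjusted p = 3.21e-04). DNA repair genes gave 10 of 31 higher (5 without control mouse 1) and 3 lower: Xpa, a damage verifier of excision repair, had 22.6, 28.1 and 18.1 CPM against 5.33, 5.02 and 5.22 (4.41-fold, adjusted p = 2.31e-04), and its partners Ddb1 and Xpc rose by 1.07 and 0.62. The p53 and apoptosis list had 10 of 33 higher (5 without CT-26 mouse 1 or control mouse 1 or 3) and 5 lower (3 without control mouse 1 or 2), with the death receptor Fas up by 1.47 and Gadd45b by 1.40, and Ccng1, a direct p53 target, 2.88-fold lower (adjusted p = 4.15e-04). Iron genes had 1 of 25 higher and 4 lower (median -0.23, -0.04 and 0.14): Slc39a14, an importer of zinc and iron, was 4.78-fold higher (58.0, 20.3 and 56.7 CPM against 8.51, 8.98 and 10.8, adjusted p = 0.00239), and Steap3, an endosomal iron reductase, 2.62-fold lower.

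Transcription factors of the myogenic list were lower in 5 of 15 cases (3 without CT-26 mouse 1, 2 without control mouse 1 or 2) and higher in 1, with medians of -0.17, 0.03 and 0.25 in the TMM, total and TPM scalings. Mrtfa, the actin-regulated coactivator of Srf, had 7.84, 8.36 and 8.67 CPM against 38.5, 31.7 and 22.4 (3.72-fold lower, adjusted p = 4.44e-04), and Srf itself had a log2 fold change of -0.42. Myf6 rose 1.48-fold (adjusted p = 0.0159) and lost this call without control mouse 1 (0.0758) or 3 (0.0630). The KLF, FOX and C/EBP list had 7 of 25 higher (4 without control mouse 1) and 4 lower (median -0.02, 0.19 and 0.33), and immediate early factors 4 of 24 (11 without CT-26 mouse 2) and 2. Nr4a2, an activity-induced receptor, was 18.4-fold lower, but control mouse 2 had 24.2 CPM against 2.15 and 2.24 in the other controls; without it the log2 fold change was -2.09 (adjusted p = 0.00884) against -4.20 with it, and without CT-26 mouse 1 the adjusted p was 0.0605.

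Neutrophil markers summed to 1.66 to 2.21 TPM in controls and 113 to 745 in CT-26 mice. Of 13 listed, 9 passed the count filter; several, such as Retnlg and Cxcr2, were near 0 in controls and passed through the CT-26 libraries, so their direction was set by the filter. Lcn2, the iron-binding lipocalin of neutrophils and acute-phase tissue, had 97.0, 19.8 and 69.3 CPM against 0.584, 0.440 and 0.675 (109-fold, adjusted p = 3.58e-04). Chil3, a chitinase-like protein of myeloid cells, had 426 counts over the CT-26 mice and 1 over the controls, a ratio of 331 with a 95% counting interval of 59.1 to 13112. That interval is for reads pooled over mice and leaves out the spread between mice, and Chil3 was chosen for this gap. Macrophage markers were higher in 3 of 11, a count that was 7 without CT-26 mouse 2, 1 without CT-26 mouse 1 or 3 or control mouse 3, and 0 without control mouse 1 or 2. Their sums overlapped (56.8 to 195 and 55.1 to 75.2 TPM). In the chemokine list 7 of 25 were higher and 2 lower; Cxcl13, which draws B cells, had 61.6, 3.83 and 31.2 CPM against 0.292, 0.0367 and 0.355 (139-fold, adjusted p = 0.00226; log2 fold change 6.23 without CT-26 mouse 1, 7.12 with it). Tnfrsf12a, the receptor of the muscle-wasting cytokine TWEAK, was 5.48-fold higher (80.0, 19.2 and 103 CPM against 10.0, 10.7 and 16.2, adjusted p = 0.00833).

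All 5 mast cell markers tested fell, and the sum of the listed markers was 1.55 to 2.65 TPM in CT-26 mice and 8.75 to 12.7 in controls. The chymase Mcpt4 had 0.148, 0.310 and 0.418 CPM against 3.25, 3.78 and 4.27 (13.3-fold lower, adjusted p = 3.22e-04). Some of these markers had few counts in CT-26 mice, such as Mcpt4 (7, 8 and 14) and Cpa3 (10, 5 and 13). They passed the count filter through the controls, so their direction was set by the filter. Schwann cell markers were lower in 6 of 8, with sums of 26.1 to 32.9 TPM against 53.9 to 59.8. Endothelial markers were mixed, 3 of 10 higher and 2 lower, with Kdr, the main VEGF receptor, 3.22-fold lower (adjusted p = 4.15e-04) and Vwf 1.62-fold higher. Smooth muscle and pericyte markers gave 3 of 9 lower (1 without control mouse 3). Satellite cell markers, of the stem cells of muscle, gave 2 of 8 in each direction: Cdh15 had 60.7, 58.4 and 51.2 CPM against 15.4, 16.7 and 14.9 (3.63-fold higher, adjusted p = 1.02e-04), and Calcr, a receptor that keeps these cells quiescent, was 4.40-fold lower (adjusted p = 0.00202). Erythroid genes rose in 5 of 5, with sums of 2440 to 3051 TPM against 532 to 892; the part of blood RNA in other results was not tested. None of the 10 T and NK cell markers passed the count filter, with sums of 0.26 to 0.67 and 0.43 to 0.74 TPM. Prnd, an endothelial and testis relative of the prion protein, had 131 counts over the controls and 3 over the CT-26 mice, a ratio of 56.2 with a 95% counting interval of 18.8 to 276. As for Chil3, that interval leaves out the spread between mice, and the gene was chosen for its gap.

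The response differed with gene class. The share called higher grew with level, from 10.1% among the least abundant genes (lowest 10%) to 34.6% among the most abundant 10%, whereas the share called lower went from 19.8 to 17.7%. Longer gene models were called lower more often, 22.6% in the longest 20% against 14.3% in the shortest 20%, and higher less often, 14% against 21.6%. Long noncoding RNAs were called less often than protein-coding genes, with 15.0% of 986 higher and 14.5% lower against 19.9 and 19.1% of 12785. No test was made of these differences, since low counts reach a call less easily. Among them 2310065F04Rik, a noncoding RNA on chromosome 11 (67112461 to 67120080), had 3.39, 19.9 and 8.79 CPM against 162, 223 and 195 (18.3-fold lower, adjusted p = 0.00113; log2 fold change -5.01 without CT-26 mouse 2, -4.19 with it). The host RNAs of small nucleolar RNAs Gas5, Snhg1, Snhg8 and Snhg12 rose by 0.84, 0.80, 1.05 and 0.94, and Epb41l4aos by 2.07. Processed pseudogenes, most of which are copies of abundant mRNAs, were higher in 27.4% of 358 cases and lower in 4.47%, and their reads may belong to the genes they copy.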

How the data were processed

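RNA from 6 gastrocnemius libraries was analysed; the hypothalamus files were not used. Per the submitters' processing notes, reads were trimmed with Trim Galore 0.6.6, aligned to GRCm38 with STAR 2.7.9a and quantified with RSEM 1.3.3; the annotation release and strand setting are not given in the sources used here, so antisense and overlapping genes are uncertain. The authors deposited expected counts, TPM and other values (transcript and effective lengths) per gene. Names from GENCODE M21 matched 52135 of 55416 identifiers (99.71% of counts). Expected counts were rounded, filtered with filterByExpr (14265 genes kept), TMM-scaled and tested with the quasi-likelihood test of edgeR 4.0.16 (R 4.3.3) with Benjamini-Hochberg adjustment; adjusted p-values in the text are from it unless TPM is named. A standard error is the absolute log2 fold change over the square root of F. TPM values were tested as log2(TPM + 0.5) with limma 3.58.1, and DESeq2 1.42.0 was an alternative, as were library totals, no filter, a replicate block and leaving out each library; leaving libraries out of list counts was added after seeing the data. Data were also simulated with the depth and spread of these libraries (14006 genes, 200 changed). In them the test found 4.48% of genes changed 1.5-fold, 45.3% of those changed 2-fold and 86.2% of those changed 4-fold. Of the calls, 8.33% were genes left unchanged. The real data gave 5417 calls, far more than the 200 genes changed in the simulation, so these rates need not hold for them. Gene lists, members and named genes were chosen with earlier results of these data known. Named genes were the 12 highest and 12 lowest fold changes among called protein-coding genes of mean log2 CPM at least 3 without overlap (predicted models and immune receptor segments left out). Added to these were the 8 largest called TPM gains and losses, and the 2 called members with the smallest p in each direction of each list. The 4 highest and 4 lowest called lncRNAs, the 8 narrowest intervals, the 4 called genes with the widest CT-26 range and the atrophy genes were also named. A rule for genes without a count in 1 group and with at least 30 in each library of the other found 0 genes. Chil3 and Prnd came from a looser rule that allowed at most 3 counts over the low group. Other examples were chosen after their values were seen.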

Additional observations from a re-analysis of the deposited data

How the results depend on the processing

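With 3 libraries a group, small changes are weakly resolved. Of the 5417 calls, 82.4% were shared with library totals, 95.8% with DESeq2 and 69.2% with TPM. Leaving out each library in turn gave 3547 to 5450 called genes, 1768 to 2779 higher and 1779 to 2671 lower. At an adjusted p of 0.01 the gastrocnemius genes called were 2851, the gastrocnemius genes called higher 1507 and the gastrocnemius genes called lower 1344. The genes within a 1.5-fold interval numbered 1048 with TPM and a pseudocount of 0.1, and 2004 to 2815 with each library left out. Library totals gave 1662 lower. TPM with a pseudocount of 0.5 or 0.1 gave 4473 or 4492 higher, 1018 or 1046 lower, and 81.5 or 81.1% of calls higher. The labels do not say whether replicate numbers pair the mice. Correlations of deviations were -0.06, 0.18 and 0.24 for same-number libraries and -0.23 to 0.08 for the other pairs, which leaves pairing undecided. With a replicate block 5721 genes were called, 2887 higher and 2834 lower. With TPM and a pseudocount of 0.5 or 0.1 the log2 difference reversed for Obsl1 (0.23, 0.24), Ube2n (0.08, 0.08), Usp9x (0.11, 0.11), Uba3 (0.06, 0.06), Dcp2 (0.07, 0.11) and Pafah1b1 (0.04, 0.05); the cause was not tested.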
